A study of Mus musculus with 21 samples.

Results

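The interferon-induced genes described here are a named list of 9 mouse genes, Ifit1, Ifit3, Isg15, Irf7, Ifi27l2a, Oasl2, Bst2, Rsad2 and Usp18, looked up by Ensembl identifier in the deposited counts. All 9 were present among the 46517 Ensembl genes of the table. The counts came from bulk sequencing of polyA RNA from the frozen left ventricle of 4 control mice (Notch3+/+) and 3 Notch3-/- mice, all C57BL/6J, 10 to 14 months old and with no treatment named. The Notch3-/- mice carry a lacZ gene inserted into the Notch3 locus in every cell, so the comparison asks what the loss of Notch3 throughout the animal goes with in the ventricle, and it cannot assign a difference to one cell type. Each mouse was measured as 3 technical libraries of amplified full-length cDNA, which were summed per mouse. The sex of the mice is not in the labels used here.

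The summed counts were 3091461, 4638786, 4208205 and 3046326 in the controls (mice 1 to 4) and 3828763, 5167869 and 5086740 in the Notch3-/- mice (1 to 3), from single libraries of 464390 to 2427783 counts. Levels are given as counts per 1000000 counts of the mouse (CPM) after TMM scaling, except for single libraries. The reads were amplified over 22 PCR cycles and carry no molecular identifiers, so copies of a molecule cannot be told from new molecules, and the limit given for a count of 0 covers counting error only. The p-values measure the spread between these 7 mice, except in fits on the 21 libraries. There the mouse was a random effect, with an estimated correlation of 0.15 between libraries of a mouse (0.14 with a block for technical number). Those p-values also draw on the spread between technical libraries.

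Interferons are secreted proteins that alert cells to foreign or misplaced nucleic acid. Type I and type III interferons act through receptor pairs and the kinases Jak1 and Tyk2 on a complex that holds Stat2 and Irf9 and binds the interferon-stimulated response element (ISRE) near its target genes, whereas interferon gamma acts mainly through the gamma-activated site (GAS). In the heart, as in other tissues, a low level of interferon-induced transcripts is present without infection, and macrophages, endothelial cells, fibroblasts and cardiomyocytes can all respond to interferon.

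The genotype labels were checked on Notch3 itself (ENSMUSG00000038146), a receptor of mural cells. Notch3 was at 57.3, 42.1, 57.6 and 61.8 CPM in the controls (mice 1 to 4) and 6.01, 7.57 and 4.73 CPM in the Notch3-/- mice (1 to 3). The groups did not overlap, and Notch3 fell by 3.16 on the log2 scale (SE 0.23, adjusted p = 0.00173 by the quasi-likelihood test of edgeR, Benjamini-Hochberg adjusted over all genes), lower in 3 of 3 mice. A gene was called when that adjusted p was under 0.05 and the fold change at least 1.5. Cardiomyocyte transcripts were abundant in every mouse: the 11 cardiomyocyte markers, of which none was at 0, summed to between 20812 and 31723 CPM, with Ttn, the giant sarcomere spring, at the highest CPM. Where the gene of a list with the highest CPM is named below, it is by the mean over the 7 mice, which need not hold in each mouse, and is not adjusted for length.

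The 9 genes lie on 7 chromosomes of the GRCm38 assembly, with Ifit1 and Ifit3 near each other on chromosome 19. Promoter windows of 300 bases (250 before and 50 after the RefSeq start site, GRCm38.p6) were at hand for 7 of the 9 genes, Ifi27l2a and Usp18 not being among them. Each window was searched on both strands for an ISRE-type motif, which is GAAA, any 2 bases, then GAAA, and for the GAS-type motif TTCNNNGAA. The ISRE-type motif was in 5 of the 7 windows, and in the windows of 1079 of all 27025 genes with one (3.99%). The 5 windows are printed because they show what these genes share outside their levels. They run 5′ to 3′ along the transcribed strand, and capitals mark the ISRE-type matches, which read TTTC, 2 bases, TTTC where the motif lies on the other strand.
Ifit1: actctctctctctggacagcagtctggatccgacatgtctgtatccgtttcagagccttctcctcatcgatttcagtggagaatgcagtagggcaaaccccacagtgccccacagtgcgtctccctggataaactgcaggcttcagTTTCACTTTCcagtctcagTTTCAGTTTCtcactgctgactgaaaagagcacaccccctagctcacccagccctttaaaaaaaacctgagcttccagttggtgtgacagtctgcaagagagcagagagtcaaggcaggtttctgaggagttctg
Ifit3: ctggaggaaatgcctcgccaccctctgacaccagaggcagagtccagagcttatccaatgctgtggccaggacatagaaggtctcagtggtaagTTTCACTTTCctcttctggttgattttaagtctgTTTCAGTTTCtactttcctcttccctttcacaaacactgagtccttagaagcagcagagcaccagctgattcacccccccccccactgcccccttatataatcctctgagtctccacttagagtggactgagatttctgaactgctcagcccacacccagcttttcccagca
Isg15: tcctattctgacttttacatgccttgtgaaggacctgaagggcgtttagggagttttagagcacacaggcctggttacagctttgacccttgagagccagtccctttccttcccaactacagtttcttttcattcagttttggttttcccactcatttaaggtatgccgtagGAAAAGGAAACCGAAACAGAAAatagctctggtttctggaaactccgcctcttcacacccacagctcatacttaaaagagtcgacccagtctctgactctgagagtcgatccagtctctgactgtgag
Bst2: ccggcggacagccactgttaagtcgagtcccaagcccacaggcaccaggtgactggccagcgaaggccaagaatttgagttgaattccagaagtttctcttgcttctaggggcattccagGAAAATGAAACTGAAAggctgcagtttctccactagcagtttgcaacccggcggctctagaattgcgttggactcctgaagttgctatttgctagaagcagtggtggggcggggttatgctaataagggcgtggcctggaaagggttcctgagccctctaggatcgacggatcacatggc
Rsad2: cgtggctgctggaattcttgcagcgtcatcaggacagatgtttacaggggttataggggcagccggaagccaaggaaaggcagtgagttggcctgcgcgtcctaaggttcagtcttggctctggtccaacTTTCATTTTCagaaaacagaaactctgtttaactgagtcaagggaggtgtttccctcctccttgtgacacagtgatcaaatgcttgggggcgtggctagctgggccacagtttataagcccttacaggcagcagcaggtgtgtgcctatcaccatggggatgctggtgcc
The windows are chr19:34640639-34640938 on the plus strand for Ifit1, chr19:34583279-34583578 on the plus strand for Ifit3, chr4:156200769-156201068 on the minus strand for Isg15, chr8:71537423-71537722 on the minus strand for Bst2 and chr12:26456403-26456702 on the minus strand for Rsad2. The matches began 104 and 85 bases before the start site in Ifit1, 156 and 122 before it in Ifit3, and 120 before it in Rsad2. Isg15 held 3 overlapping matches beginning 78, 72 and 66 bases before its start, and Bst2 held a pair of overlapping matches at 130 and 124. The GAS-type motif was in the Bst2 window only, as TTCCAGGAA, beginning 136 bases before the start and overlapping the first ISRE-type match. That motif was in the windows of 9.55% of all genes. The Irf7 and Oasl2 windows held neither set of letters. With 1 more spacer base, the ISRE-type motif was in 2 of the 7 windows (Ifit3 and Rsad2), against 3.17% of all genes. Among the other gene lists used below, the ISRE-type motif with 2 spacer bases was in 26 of 52 windowed genes of the further interferon-induced genes, in 9 of 10 interferon gamma GTPases and in 11 of 20 interferon ligands. It was in 3 of 15 genes of receptors and signalling, in 3 of 17 sensors and adaptors and in 0 of 4 genes of Isg15 conjugation. Of the cell marker lists, it was in 1 of 8 windowed macrophage genes and in 0 of the others, among them 0 of 11 cardiomyocyte and 0 of 15 hepatocyte markers. These are matches of letters in short windows and were not tested as binding sites.

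All 9 genes were detected in every mouse, at low levels. Levels of different genes are compared here only as CPM per kilobase of annotated exon. In the control mice Ifi27l2a stood first at 52.6 ± 2.18 CPM per kilobase (SD, n = 4), followed by Bst2 at 34.8 ± 5.64. These leading genes kept clear of each other and of the other 7 in all 4 control mice. The rest were within a narrow range, from Irf7 at 7.93 ± 3.46 and Rsad2 at 6.42 ± 3.38, through Ifit3 at 4.73 ± 1.96, Ifit1 at 4.64 ± 1.75, Isg15 at 4.15 ± 1.04 and Usp18 at 4.05 ± 0.919, to Oasl2 at 3.45 ± 1.09 CPM per kilobase. Neighbours among these 7 differed by less than their spread between mice. The order in the Notch3-/- mice (n = 3) again opened with Ifi27l2a at 74.4 ± 3.79 and Bst2 at 65.2 ± 29.4 CPM per kilobase, whose ranges overlapped there. The Irf7 level is a low estimate on this scale, since its annotated exons, merged over transcripts, cover its whole span of 3776 bases.

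All 9 genes passed the filter on low counts, and all 9 had a positive log2 fold change for Notch3-/- minus control, against 49.6% of the 14324 genes tested. Their median log2 fold change was 0.65, beside a median of -0.00284 over all tested genes. None of the differences passed the test: edgeR called 0 of the 9 genes. It called 1 gene of the 14324 (0.00698%), which was Notch3, and 0 genes (0%) as higher in Notch3-/- mice. Across all genes limma-voom on the same mice also called 1, whereas DESeq2 called 601 of 17013 (3.53%), of which 574 were higher. At an unadjusted p under 0.05, edgeR had 4 of the 9 as higher (Ifit3, Irf7, Ifi27l2a and Bst2) and 0 as lower, against 7.34% of all tested genes as higher and 3.05% as lower. DESeq2 and limma-voom each called 0 of the 9 as well, with 4 of the 9 at an unadjusted p under 0.05, against 5.06% and 4.63% of all genes as higher. In bulk tissue, more expressing cells and more RNA per cell cannot be told apart. Only 1 of the 9, Ifi27l2a, had every Notch3-/- mouse above every control mouse, a pattern seen in 4.57% of tested genes. Single mice weighed on these counts. Without Notch3-/- mouse 3, edgeR called 1 of the 9, Bst2, and 936 of 15008 genes in all (6.24%). The members at an unadjusted p under 0.05 numbered 7 without Notch3-/- mouse 1, 2 without Notch3-/- mouse 2, 6 without control mouse 4, and 2 without control mouse 1, control mouse 2 or control mouse 3. The share of all tested genes at that p and higher moved to 11.6% without Notch3-/- mouse 3 and to 4.29% without Notch3-/- mouse 2, and was 5.58% to 7.32% when each of the other mice was left out. The labels of control mice 1 and 2 start with X and those of the other 5 mice with k, for a reason not given in the sources used here. Among the k mice alone, 9 of the 9 log2 fold changes were positive with a median of 0.46, edgeR called 0 and 1 was at an unadjusted p under 0.05, against 5.01% of all genes as higher in that fit. The X mice are all controls and give no comparison.

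**Figure D1:**
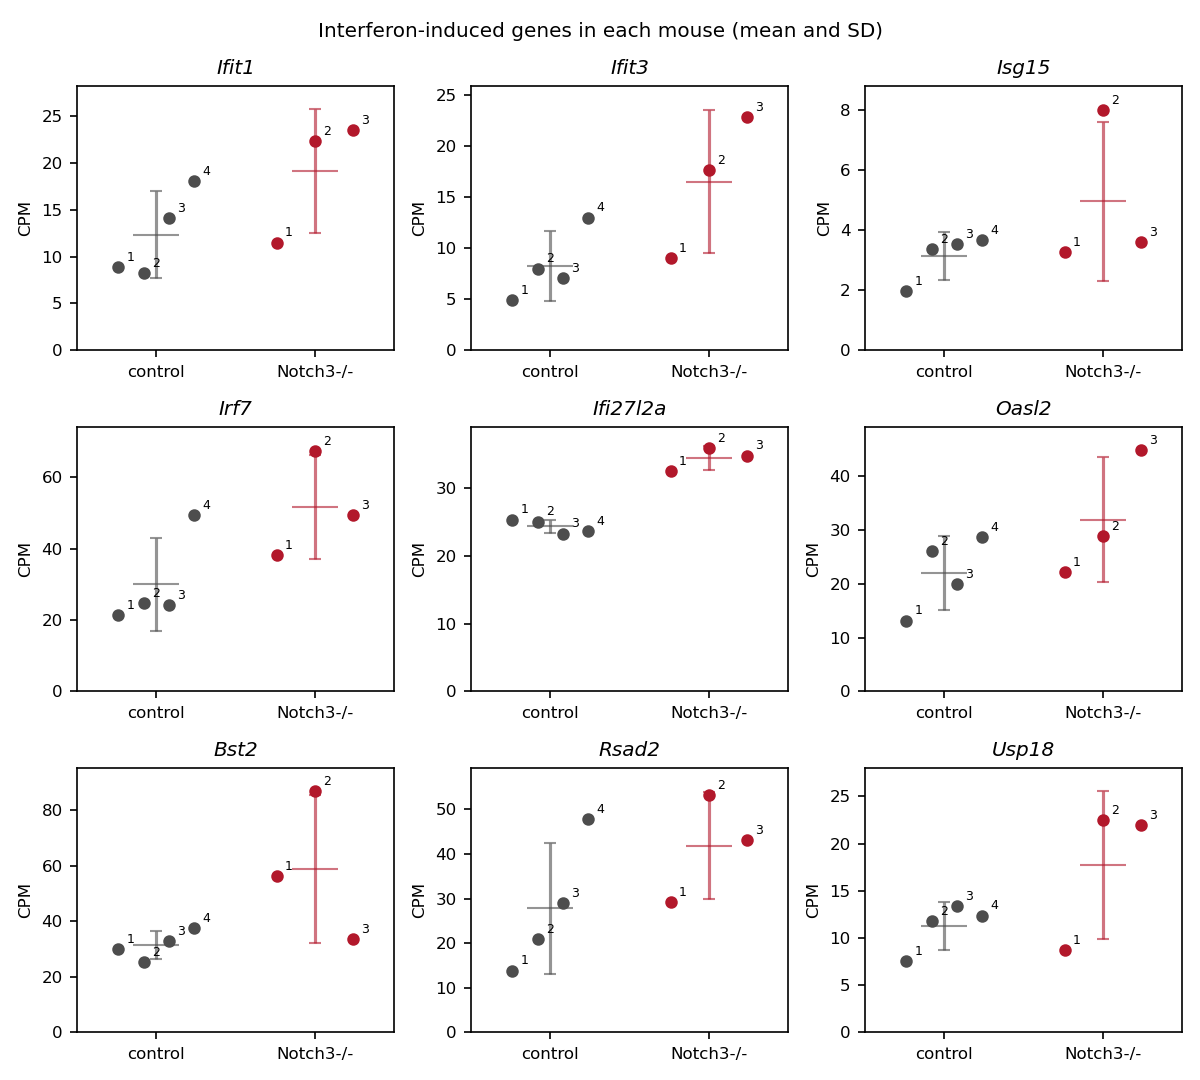
CPM of each of the 9 genes in the 4 control mice (grey) and the 3 Notch3-/- mice (red), with the mouse number beside each point and the mean and SD as bars. Only Ifi27l2a has no overlap between groups, from 23.3 to 25.4 CPM in controls and from 32.5 to 36.0 CPM in Notch3-/- mice.

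Irf7 (ENSMUSG00000025498, chr7:141262706-141266481) encodes the transcription factor that amplifies type I interferon production once induced. Irf7 was at 21.4, 24.7, 24.2 and 49.4 CPM in the controls (mice 1 to 4) and at 38.3, 67.3 and 49.4 CPM in the Notch3-/- mice (1 to 3). Control mouse 4 stood well above the other control mice and level with Notch3-/- mouse 3, so the groups overlapped. The log2 fold change of Irf7 was 0.80 (SE 0.30, adjusted p = 0.41 by edgeR, adjusted in the same way, as for all genes below). Irf7 shares 45 exon bases with Phrf1 on the opposite strand, 1.19% of its own, and the strand setting used for counting is not stated. Phrf1 had a log2 fold change of 0.27 (SE 0.13, edgeR adjusted p = 0.499).

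Ifit1 and Ifit3 encode tetratricopeptide-repeat proteins that act together: Ifit1 binds viral RNA that lacks the host's cap methylation, and Ifit3 is its partner. Ifit1 (ENSMUSG00000034459, chr19:34640871-34650009) was at 8.89, 8.22, 14.1 and 18.0 CPM in the control mice and at 11.5, 22.3 and 23.4 CPM in the Notch3-/- mice. Notch3-/- mice 2 and 3 were above every control, while Notch3-/- mouse 1 lay among the controls. Ifit3 (ENSMUSG00000074896, chr19:34583531-34588731) was at 4.94, 8.01, 7.06 and 13.0 CPM in the control mice and at 9.02, 17.7 and 22.9 CPM in the Notch3-/- mice. The same pair of Notch3-/- mice stood above all controls, and Notch3-/- mouse 1 was below control mouse 4. The log2 fold changes were 0.65 for Ifit1 (SE 0.35, edgeR adjusted p = 0.554) and 1.01 for Ifit3 (SE 0.39, edgeR adjusted p = 0.406), the latter the largest of the 9. Of the 51-base stretches of Ifit3 transcripts, the length of a read, 50.8% also occur in its neighbour Ifit3b, so how reads were divided between them is uncertain. Ifit3b itself had a log2 fold change of 0.19 (edgeR adjusted p = 0.914). Ifit1 shares 6.98% of its stretches with Ifit1bl2, whose log2 fold change was 0.03 (edgeR adjusted p = 0.987).

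Oasl2 (ENSMUSG00000029561, chr5:114896936-114912234) belongs to the family of oligoadenylate synthetases, which sense double-stranded RNA. Oasl2 was at 13.2, 26.1, 19.997 and 28.7 CPM in the control mice and at 22.1, 28.8 and 44.8 CPM in the Notch3-/- mice. Only Notch3-/- mouse 3 stood clearly apart, since Notch3-/- mouse 2 was level with control mouse 4. The log2 fold change was 0.54 (SE 0.31, edgeR adjusted p = 0.577). Rsad2 (ENSMUSG00000020641, chr12:26442746-26456452) encodes viperin, an enzyme that makes a chain-terminating nucleotide from CTP. Rsad2 was at 13.8, 20.9, 28.9 and 47.8 CPM in the control mice and at 29.2, 53.2 and 43.1 CPM in the Notch3-/- mice. The controls spanned most of the range of the gene, and only Notch3-/- mouse 2 was above all of them. Its log2 fold change was 0.60 (SE 0.37, edgeR adjusted p = 0.601).

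Bst2 (ENSMUSG00000046718, chr8:71534255-71537456) encodes tetherin, a membrane protein that holds budding virus particles on the cell surface. Bst2 was at 30.0, 25.3, 32.9 and 37.4 CPM in the control mice and at 56.3, 86.7 and 33.7 CPM in the Notch3-/- mice. Notch3-/- mice 1 and 2 stood above every control, and Notch3-/- mouse 3 lay among the controls. The log2 fold change was 0.91 (SE 0.28, edgeR adjusted p = 0.29). Bst2 was the only gene of the 9 called in any refit: without Notch3-/- mouse 3 its log2 fold change was 1.19 (edgeR adjusted p = 0.00951, within a range of 0.00951 to 0.973 over its refits), whereas Notch3-/- mouse 3 alone against the controls gave 0.11. Ifi27l2a (ENSMUSG00000079017, chr12:103442167-103443680), a small membrane protein of the Ifi27 family, was at 25.4, 25.1, 23.3 and 23.7 CPM in the control mice and at 32.5, 36.0 and 34.8 CPM in the Notch3-/- mice. Both groups were tight and did not overlap. Its log2 fold change of 0.50 was the smallest of the 9 with the smallest SE, 0.15, and with the lowest adjusted p, 0.267 by edgeR. The closeness of the summed mice was not matched by their technical libraries, between which log2 CPM of Ifi27l2a varied with an SD of 0.50 within a mouse, against 0.08 between the mouse means of a group.

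Isg15 (ENSMUSG00000035692, chr4:156199424-156200818) encodes a ubiquitin-like protein that is joined to other proteins or secreted. Isg15 was at 1.98, 3.37, 3.53 and 3.67 CPM in the control mice and at 3.28, 7.99 and 3.59 CPM in the Notch3-/- mice, from 6 to 38 counts per mouse. Notch3-/- mouse 2 stood alone, with Notch3-/- mice 1 and 3 inside the control range. The log2 fold change was 0.65 (SE 0.42, edgeR adjusted p = 0.627). Isg15 shares 3.68% of its 51-base stretches with AC151275.1. Usp18 (ENSMUSG00000030107, chr6:121245906-121270917) encodes the protease that takes Isg15 off its targets and that also dampens the type I receptor. Usp18 was at 7.57, 11.8, 13.4 and 12.4 CPM in the control mice and at 8.74, 22.5 and 21.9 CPM in the Notch3-/- mice. Notch3-/- mice 2 and 3 were above every control, and Notch3-/- mouse 1 was below all controls but mouse 1. The log2 fold change was 0.65 (SE 0.35, edgeR adjusted p = 0.547). Usp18 overlaps the noncoding gene Gm44148 on the opposite strand over 124 exon bases, 4.44% of its own.

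**Figure D2:**
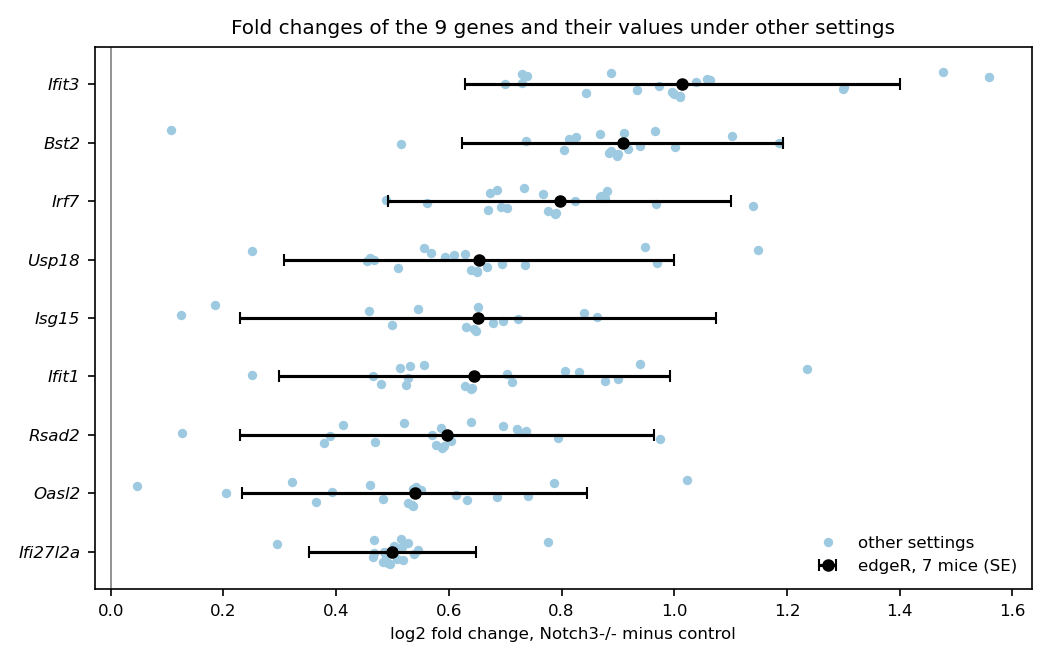
Log2 fold change (Notch3-/- minus control) of each gene by edgeR on 7 mice (black, bars are SE) and under the other settings (blue). Every value is above 0, from 0.05 to 1.56, and Bst2 extends down to 0.11 with Notch3-/- mouse 3 alone.

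The 9 genes shared an order of mice only in part. Over the n = 7 mice, the Pearson r of log2 CPM between a pair of them lay between 0.171 (Oasl2 and Bst2) and 0.928 (Ifit3 and Oasl2). Notch3-/- mouse 1 was at rank 2 from the top of the 7 mice for Bst2, at rank 5 for Oasl2 and at rank 6 for Isg15 and Usp18. Summed over the 9, the level was 127, 153, 168 and 234 CPM in the controls (mice 1 to 4) and 211, 342 and 278 CPM in the Notch3-/- mice (1 to 3). Control mouse 4 was thus above Notch3-/- mouse 1. Notch3-/- mouse 2 was above every control for 9 of the 9 genes, Notch3-/- mouse 3 for 5 and Notch3-/- mouse 1 for 2 (Bst2 and Ifi27l2a), against 29.3%, 20.1% and 23.9% of all tested genes in these mice. The highest mouse was Notch3-/- mouse 2 for 6 genes and Notch3-/- mouse 3 for 3, and the lowest was control mouse 1 for 6. Among the 10720 tested genes outside the list with a mean of at least 10 CPM, those whose log2 CPM over the mice was most like the mean of the standardised members were Tysnd1 (Pearson r = 0.975), Parp9 (0.968), Naa60 (0.968), Bop1 (0.968), Dtx3l (0.965), Rnf123 (0.962), Pdgfd (0.959), Srrt (0.954), 1700037C18Rik (0.953) and Slc46a3 (0.952). These are descriptions over n = 7 mice that share the genotype difference, and 2 of these 10 genes, Parp9 and Dtx3l, are on the list of further interferon-induced genes.

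**Figure D3:**
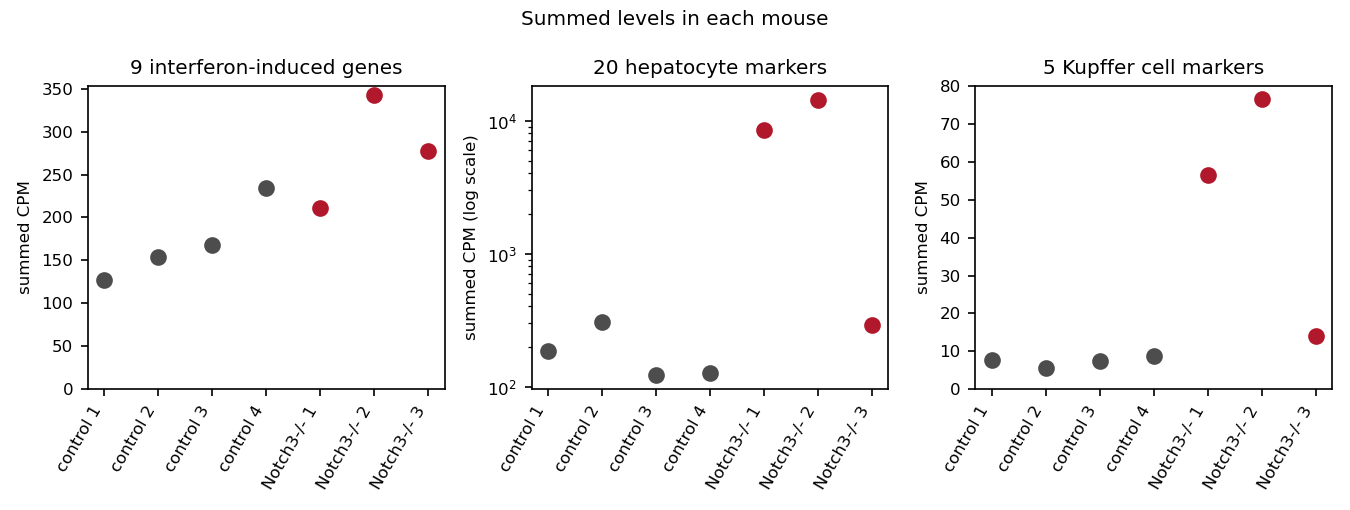
Summed CPM in each mouse (grey control, red Notch3-/-) of the 9 interferon-induced genes, of 20 hepatocyte markers on a log scale and of 5 Kupffer cell markers. The 9 genes reach 342 CPM in Notch3-/- mouse 2, and the hepatocyte markers reach 14322 CPM there but 288 CPM in Notch3-/- mouse 3.

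The interferons themselves were hardly seen. Of 21 ligand genes, 18 had 0 counts in all 7 mice, among them Ifnb1. A count of 0 allows up to 3 counts, which is 0.567 CPM in Notch3-/- mouse 3 and 1 CPM in control mouse 4. These are upper limits for a gene at 0 in that mouse, and a lower level can still give a count. The ligand with the most counts was Ifnk, an interferon known from keratinocytes, with 1 count in control mouse 4, 2 in Notch3-/- mouse 2 and 1 in Notch3-/- mouse 3. The other ligands with any were Ifna13 and Ifng, with 1 count each, in control mice.

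All 17 genes of the receptors and their signalling were tested, and edgeR, DESeq2 and limma-voom each called 0 of them. Of these, 12 had a positive and 5 a negative log2 fold change, with a median of 0.08. At an unadjusted p under 0.05 edgeR had 3 higher and 1 lower, against 7.34% and 3.05% of all tested genes. Without control mouse 3 the count was 2 in all. Stat2, a transcription factor of the type I complex, was at 16.1, 24.0, 18.6 and 26.4 CPM in the control mice and at 29.8, 49.2 and 32.9 CPM in the Notch3-/- mice. Every Notch3-/- mouse was above every control, with a log2 fold change of 0.81 (SE 0.24, edgeR adjusted p = 0.267). Stat3, which carries signals of the interleukin-6 family, was at 254 to 284 CPM in controls and 329 to 359 CPM in Notch3-/- mice. It also did not overlap between groups, with a log2 fold change of 0.36 (SE 0.10, edgeR adjusted p = 0.234). The gene with the highest CPM here, the interferon gamma receptor chain Ifngr2, had a log2 fold change of -0.12 (edgeR adjusted p = 0.759).

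Of 22 sensors of nucleic acid and their adaptors, 20 were tested, 18 of them with a positive log2 fold change and a median of 0.30. EdgeR, DESeq2 and limma-voom each called 0 of these genes. At an unadjusted p under 0.05 edgeR had 6 of the 20 higher and 0 lower, against 7.34% and 3.05% of all tested genes. Without Notch3-/- mouse 3, edgeR called 1 of the 20, near the 6.24% of all genes called in that fit. This was the kinase gene Ikbke, named for that call after its values were seen. Ikbke had 10, 16, 6 and 12 counts in the control mice and 20, 102 and 9 in the Notch3-/- mice, so Notch3-/- mouse 2 stood apart. Ifih1, the sensor of long double-stranded RNA, was at 23.7, 20.02, 21.2 and 21.04 CPM in the control mice and at 32.8, 37.6 and 29.5 CPM in the Notch3-/- mice. Its groups did not overlap, and the log2 fold change was 0.63 (SE 0.17, edgeR adjusted p = 0.206). Mavs, the mitochondrial adaptor of that sensor, was at 165 to 231 CPM in controls and 235 to 286 CPM in Notch3-/- mice, also without overlap (log2 fold change 0.46, edgeR adjusted p = 0.29). Dhx58, a regulator of the same sensors, was at 2.63, 3.58, 6.59 and 5.68 CPM in the control mice and at 5.74, 16.4 and 15.3 CPM in the Notch3-/- mice. Notch3-/- mouse 1 again lay within the controls, and the log2 fold change was 1.43 (SE 0.43, edgeR adjusted p = 0.277).

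The 4 genes that join Isg15 to proteins were all tested and all had positive log2 fold changes, with a median of 0.33. EdgeR, DESeq2 and limma-voom called 0 of the 4, and edgeR had 0 at an unadjusted p under 0.05. The log2 fold changes were 0.52 for the ligase Herc6, 0.33 for Trim25 and 0.28 for the activating enzyme Uba7. Without Notch3-/- mouse 1 there was 1 at that p. For 4 of the 4, Notch3-/- mouse 2 was above every control, against 29.3% of all tested genes in this mouse. Notch3-/- mouse 1 was so for 0 of the 4 and Notch3-/- mouse 3 for 1, against 23.9% and 20.1%. Their summed level in control mouse 4, 212 CPM, was above that of Notch3-/- mice 1 and 3, at 159 and 179 CPM. In Notch3-/- mouse 2 it was 281 CPM.

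The list of 65 further interferon-induced genes had 56 tested, of which 46 had a positive and 10 a negative log2 fold change, with a median of 0.41. EdgeR called 0 of the 56, with 14 higher and 0 lower at an unadjusted p under 0.05 (4 in all without Notch3-/- mouse 2 and 7 without control mouse 1). Of all tested genes, 7.34% were higher and 3.05% lower at that p. Of the 56, 13 had every Notch3-/- mouse above every control, against 4.57% of all tested genes. Limma-voom on the 7 mice also called 0, while DESeq2 called 3 of 62 as higher, against 3.53% of all genes: Pml and the apolipoprotein L genes Apol9a and Apol9b, the latter pair named after their values were seen. EdgeR called the same 3, of 64, when every gene with at least 1 count was kept, against 2.22% of all genes in that fit. Limma-voom on the 21 libraries called Pml, 1 of 40, with and without a block for technical number. The share of all genes called was 0.581% without the block and 0.554% with it. Without Notch3-/- mouse 3, edgeR called 4 of 59, the same 3 genes and Helz2, against 6.24% of all genes in that fit. Their summed level was 1424, 1500, 1563 and 1769 CPM in the controls (mice 1 to 4) and 1662, 2385 and 1924 CPM in the Notch3-/- mice (1 to 3). Control mouse 4 was again above Notch3-/- mouse 1. Pml, the scaffold protein of nuclear bodies, had the smallest p, at 20.4, 20.02, 19.3 and 23.7 CPM in the control mice and 34.7, 54.5 and 38.2 CPM in the Notch3-/- mice. The groups of Pml were apart in all mice, with a log2 fold change of 1.03 (SE 0.19, edgeR adjusted p = 0.118). Slfn9, a schlafen family gene, and Oasl1, a relative of Oasl2, did not overlap between groups either, with log2 fold changes of 1.04 (SE 0.29, edgeR adjusted p = 0.238) and 1.30 (SE 0.42, edgeR adjusted p = 0.306). The gene with the highest CPM, Ly6e, which hinders entry of some viruses, had a log2 fold change of 0.12 (SE 0.15, edgeR unadjusted p = 0.437).

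Of 18 GTPases known chiefly as targets of interferon gamma, 15 were tested, 12 with a positive and 3 with a negative log2 fold change and a median of 0.29. EdgeR and limma-voom called 0 of the 15. At an unadjusted p under 0.05 edgeR had 1 higher and 0 lower, against 7.34% and 3.05% of all tested genes. DESeq2 called 1 of 16 as higher, against 3.53% of all genes called in that fit. The edgeR count at an unadjusted p under 0.05 was 7 without control mouse 2, 4 of 16 without Notch3-/- mouse 3 and 2 of 16 without control mouse 4. Of all genes in these fits, 1338 of 14109, 2448 of 15008 and 1229 of 14359 were at that p. In both edgeR and DESeq2 on all 7 mice the gene was Ifi47, which was at 5.27, 10.1, 6.59 and 12.4 CPM in the control mice and at 18.3, 25.2 and 15.9 CPM in the Notch3-/- mice. It did not overlap between groups, and its log2 fold change was 1.20 (SE 0.32, edgeR adjusted p = 0.207). Irgm2, at the highest mean CPM of the list, was highest of all in control mouse 2, at 133 CPM, and had a log2 fold change of -0.07 (SE 0.28, edgeR adjusted p = 0.956). In each Notch3-/- mouse Iigp1 was at a higher CPM, 91.3, 101 and 71.5 against 68.3, 96.1 and 69.97 CPM, with no adjustment for length. Per kilobase of annotated exon, the mean over the 7 mice was 21.7 CPM for Irgm2 and 12.1 CPM for Iigp1. The summed level of these GTPases was 375, 662, 377 and 469 CPM in the control mice and 532, 665 and 526 CPM in the Notch3-/- mice. Control mouse 2 was thus nearly as high as the highest Notch3-/- mouse, an order unlike that of the 9 genes.

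**Figure D4:**
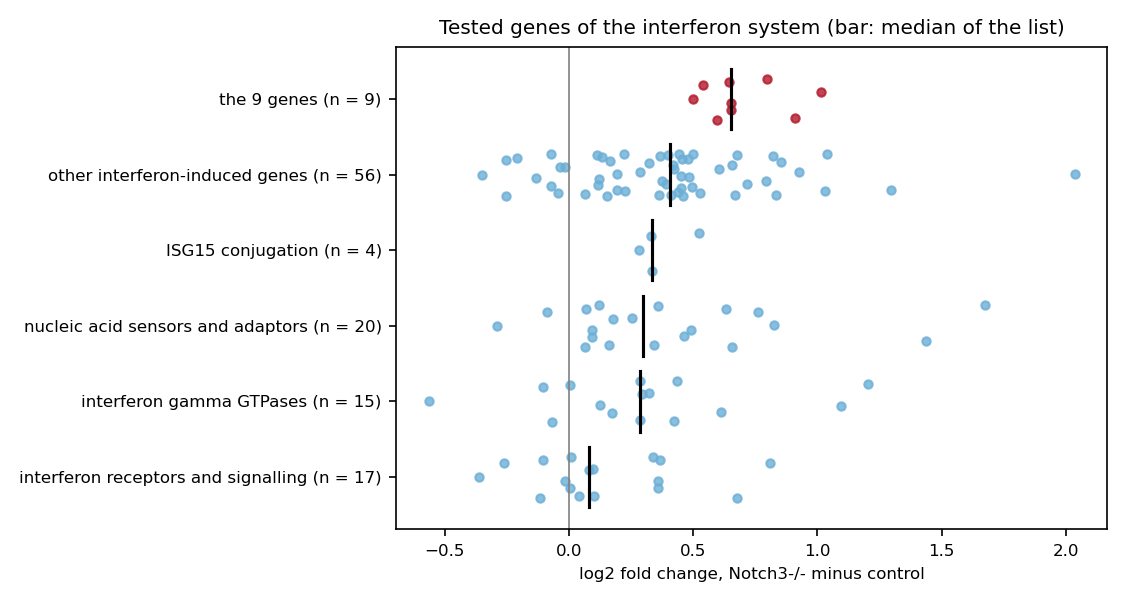
Log2 fold change (Notch3-/- minus control, edgeR) of each tested gene in the 9 interferon-induced genes and in 5 related lists, with a black bar at the median. The medians are 0.65 for the 9 genes, 0.41, 0.33, 0.30, 0.29 and 0.08 for the other lists.

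Markers of other cells were read beside these values. The hepatocyte list was high in a pair of Notch3-/- mice. All 18 tested of its 20 genes were higher at an unadjusted p under 0.05 by edgeR, with a median log2 fold change of 7.17. By limma-voom on the same mice only 2 of the 18 were at that p. EdgeR and limma-voom on the 7 mice called 0 of the 18, and edgeR on the k mice called 0 of 20, with 20 at that p. DESeq2 called 20 of 20, as did edgeR with every gene of at least 1 count and edgeR without Notch3-/- mouse 3. Of all genes, 3.53%, 2.22% and 6.24% were called in these fits. EdgeR on technical libraries 1, 2 or 3 alone called 5 of 5, 8 of 9 and 10 of 10, against 0.427%, 0.339% and 0.651% of all genes. Limma-voom on the 21 libraries called 2 of 7, Alb and Trf, with and without the block, against 0.554% and 0.581% of all genes. The summed level of the 20 was 185, 306, 122 and 127 CPM in the controls (mice 1 to 4) and 8422, 14322 and 288 CPM in the Notch3-/- mice (1 to 3). The transferrin gene Trf had the highest mean CPM, at 98.2 to 144 CPM in controls and 1420, 1790 and 130 CPM in the Notch3-/- mice. The albumin gene Alb was at 1705 and 1875 CPM in Notch3-/- mice 1 and 2, higher than Trf there with no adjustment for length. Tat, a liver enzyme of tyrosine breakdown, had 0 counts in control mice 1 and 4, and 1148, 3526 and 21 counts in the Notch3-/- mice. The 5 markers of Kupffer cells, the macrophages of liver, summed to 7.57, 5.69, 7.29 and 8.68 CPM in the control mice and 56.6, 76.6 and 13.99 CPM in the Notch3-/- mice. Clec4f had their highest mean CPM, close to Cd5l, and had 0 counts in control mouse 1, Cd5l had 0 in control mice 1 to 3, and Marco had 0 in Notch3-/- mouse 3 and in control mice 1, 3 and 4. All 3 tested Kupffer markers were higher at an unadjusted p under 0.05, and 1 of 2 without control mouse 4. EdgeR and limma-voom on the 7 mice called 0 of these 3, which did not include Clec4f. DESeq2 and edgeR with every gene of at least 1 count each called 1 of 5, Clec4f, against 3.53% and 2.22% of all genes. EdgeR without Notch3-/- mouse 3 called 2 of 4, Clec4f and Cd5l, against 6.24% of all genes.

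In Notch3-/- mouse 3 the hepatocyte sum was below that of control mouse 2. Of the 18 tested hepatocyte genes, 9 were above every control, against 20.1% of all tested genes in this mouse. The Kupffer sum, 13.99 CPM, was above that of every control. Within it Vsig4 was at 6.43 CPM and Timd4 at 5.48 CPM, against up to 4.94 and 2.63 CPM in controls. Clec4f was at 1.89 CPM, against 0 to 1.65 CPM in controls. Cd5l, at up to 4.01 CPM in controls, was at 0.189 CPM in this mouse. Against the 4 controls this mouse alone had positive log2 fold changes for 9 of 9 genes, with a median of 0.73 and 4 at an unadjusted p under 0.05, against 2.44% of all genes of that fit as higher at that p, and edgeR called 0 of them. Of the 18 hepatocyte genes in the same fit, 1 was at that p and 0 were called. In that fit the lone mouse is assumed to vary as the controls do. The value for Bst2 was 0.11, and Bst2 had its high values in the mice with high liver transcripts. The part of those transcripts in the levels of the 9 genes was not tested. With Notch3-/- mice 1 and 2 alone against the controls, the 9 genes had a median of 0.57.

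In the other marker lists edgeR and limma-voom on the 7 mice called 0 genes. DESeq2 called 1 of 7 fibroblast genes, Col1a1, as higher and 1 of 9 mural genes, Myh11, as lower, against 3.53% of all genes. Macrophage genes had 9 positive and 3 negative log2 fold changes among 12 tested, with a median of 0.22. At an unadjusted p under 0.05, 2 were higher (Mertk and Mrc1, log2 fold changes 0.65 and 0.37), against 7.34% of all tested genes. At that p there were 0 without Notch3-/- mouse 2 and 1 without Notch3-/- mouse 1 or without control mouse 2, 3 or 4. Their summed level was 453, 428, 459 and 389 CPM in the control mice and 468, 473 and 522 CPM in the Notch3-/- mice, so every Notch3-/- mouse was above every control by this sum. Csf1r, the receptor that macrophages need to survive, had the highest CPM, and no gene of the list was at 0 in any mouse. The part of macrophage number in the interferon-induced genes was not tested. Of 8 monocyte and neutrophil genes, 3 were tested with a median of 0.10, 1 higher at an unadjusted p under 0.05. That was the monocyte chemokine receptor Ccr2, at 4.47 to 7.68 CPM in controls and 8.20 to 13.4 CPM in Notch3-/- mice (log2 fold change 1.02, edgeR adjusted p = 0.277), while the neutrophil gene Ly6g had 0 counts in all mice. The 8 genes summed to 15.5, 15.6, 15.1 and 21.4 CPM in the control mice and 25.1, 21.7 and 26.5 CPM in the Notch3-/- mice. By this sum too every Notch3-/- mouse was above every control, but Notch3-/- mouse 2 was almost level with control mouse 4. Csf3r, also tested, had a log2 fold change of -0.18 (edgeR adjusted p = 0.924). Of 4 plasmacytoid dendritic cell genes only 1 could be tested, Ccr9, with a log2 fold change of 0.25 (edgeR adjusted p = 0.924).

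The median log2 fold change of the 8 endothelial genes was 0.05, with 0 at an unadjusted p under 0.05 (1 without Notch3-/- mouse 3 or control mouse 1, 2 or 4), and that of the 7 fibroblast genes was 0.03, with 2 higher and 1 lower (1 in all without control mouse 2 or 3). The 11 cardiomyocyte genes all had negative log2 fold changes, with a median of -0.24 and 0 at an unadjusted p under 0.05, but 9 without Notch3-/- mouse 1 and 3 without control mouse 2. Of 8 tested mural cell genes, 7 had negative log2 fold changes, with a median of -0.26. At an unadjusted p under 0.05, 4 were lower (2 without Notch3-/- mouse 3), against 3.05% of all tested genes on the 7 mice. Myh11, the myosin of smooth muscle, was at 39.8, 20.4, 10.6 and 19.7 CPM in the control mice and at 3.28, 5.05 and 3.59 CPM in the Notch3-/- mice. These did not overlap (log2 fold change -2.49, SE 0.45, edgeR adjusted p = 0.118), and edgeR called Myh11 as lower without Notch3-/- mouse 3, with every gene of at least 1 count and on technical libraries 2 alone, as did limma-voom on the 21 libraries with and without the block.

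The technical libraries of a mouse gave a measure of how repeatable the levels were. For single libraries CPM is the count over the library total with no TMM scaling, so these values are not on the scale of the mouse values. On this scale the sum over the 9 genes was 320, 303 and 321 CPM in the libraries of Notch3-/- mouse 2 and 138, 121 and 116 CPM in those of control mouse 1. It was less even in Notch3-/- mouse 3, at 267, 221 and 340 CPM, where the last came from the deepest library of all, with 2427783 counts. Leaving out that library, the median log2 fold change of the 9 was 0.56. Within mice, log2 of the summed level had a slope of 0.20 (SE 0.09) per log2 unit of library total. The slope was 0.32 (SE 0.13) for the sum without Bst2 and Ifi27l2a. Single genes were fitted on log2 CPM with a prior count of 2, so their slopes are not on the scale of the sums. For them the median slope of the 7441 tested genes in the same range of levels was 0.22. The slope of Ifit1, the steepest of the 9, was 0.91. All 9 genes were detected in each library except in the second of control mouse 4, where Isg15 had 0 counts. Between libraries of a mouse, log2 CPM varied with an SD of 0.29 for Bst2 to 0.63 for Ifit1.

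**Figure D5:**
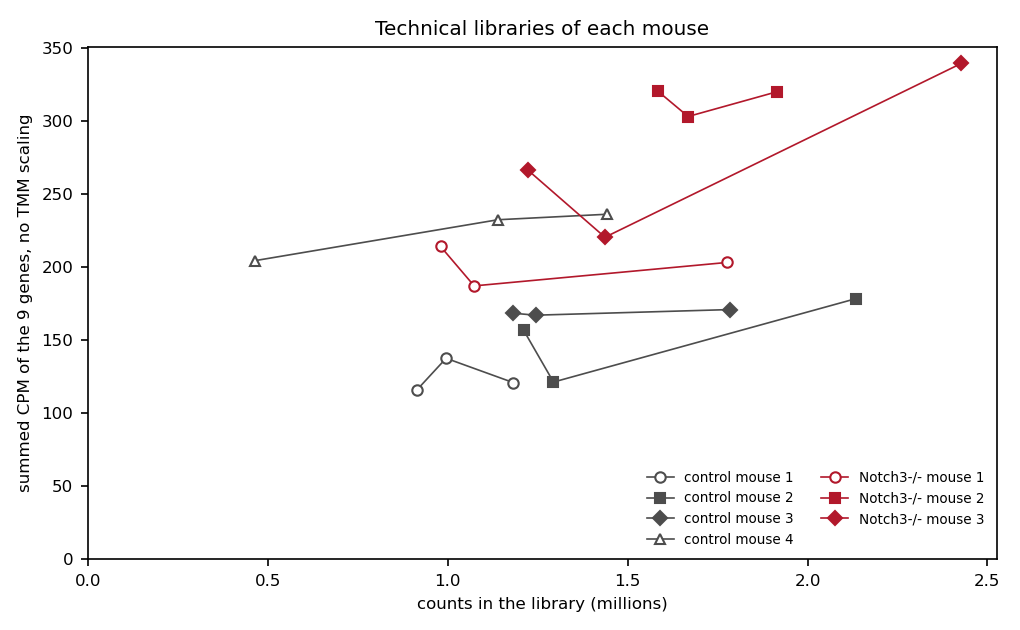
Summed CPM of the 9 genes, as counts over the library total with no TMM scaling, against the library's total counts in units of 1000000 counts, 1 point for each of the 21 libraries, with lines joining the libraries of a mouse (grey control, red Notch3-/-). Libraries of Notch3-/- mouse 2 lie between 303 and 321 CPM on this scale and those of control mouse 1 between 116 and 138 CPM.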

How the data were processed

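The deposited counts of reads per Ensembl gene, one column for each of 21 libraries, were used as the authors provided them. The submitters' processing notes name build mm10 and CASAVA, and the aligner, counting program, annotation and strand setting are not given in the sources used here. Of 46609 lines, 92 for ERCC spike-ins were set aside, with 34 counts in all, and 0 columns were left out. GENCODE vM21 (GRCm38) gave positions and symbols for 46005 genes. The 3 technical libraries of a mouse were summed, giving 4 control and 3 Notch3-/- mice. Genes were tested with edgeR 4.0.16 in R 4.3.3 (TMM factors, filterByExpr, quasi-likelihood F-test, Benjamini-Hochberg adjustment over all tested genes) and called at an adjusted p under 0.05 and a fold change of at least 1.5. For log2 CPM a prior count of 2 was used. Fits were tested on simulated data. Promoter windows came from RefSeq.

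Genes were named by a rule: the 9 members, Notch3, and of each other list the called genes, the 3 with the smallest p and the gene with the highest CPM, then the 10 genes most like the members over the mice, and genes overlapping or sharing sequence with a member. Other names were chosen after their values were seen. Some genes that the rule names are not reported here. The members and lists were chosen with earlier results of these data known.

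Alternatives were DESeq2 1.42.0, RLE factors, every gene with at least 1 count, leaving out each mouse, the mice labelled k, limma 3.58.1 (voom) on 7 mice and on 21 libraries with and without a block for technical number, each technical number alone, no fold threshold and a longer motif. Tables and plots were made with Python 3.11.15, pandas 2.3.3, numpy 2.4.6 and matplotlib 3.10.9.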

Additional observations from a re-analysis of the deposited data

Results flagged for a closer look

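In 9 of 77 sets of values from the 4 control mice, a single mouse lay far from the others by Dixon's test, its gap to the nearest mouse divided by the range being above the critical value for 4 values. In 2 of the 9, Ifnk and Cd5l, 3 controls were at 0, where the gap always equals the range and the test says nothing. Of the 75 other sets 7 were marked, and chance alone marks about 5% of such sets. The sets are not independent, since the sum of Isg15 conjugation holds Trim25, so no excess over that share can be read from these marks. In control mouse 4, Irf7 was at 49.4 CPM, against 21.4 to 24.7 CPM in the other controls, Trim25 was at 62.1 CPM, against 53.95 to 55.3 CPM, and the summed genes of Isg15 conjugation were at 212 CPM, against 144 to 154 CPM. In the same mouse, Ifnk was at 0.334 CPM, which is 1 count, and Cd5l at 4.01 CPM, with both at 0 in the other controls, and the summed monocyte and neutrophil genes were at 21.4 CPM, against 15.1 to 15.6 CPM. In control mouse 2, Gbp10 was at 4.43 CPM, against 1.32 to 1.41 CPM. In control mouse 1, Mrc1 was at 44.1 CPM, against 33.7 to 35.3 CPM, and Col1a1 was at 167 CPM, against 126 to 127 CPM.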

How the results depend on the processing

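Over 19 refits, 166 of 166 log2 fold changes of the 9 genes kept their positive direction, from 0.05 to 1.56. The refits reuse the same 7 mice, so these values are not independent of each other. Their adjusted p lay between 0.00951 and 0.998, and 1 of them was called, Bst2 without Notch3-/- mouse 3. Leaving out single mice, the members called ranged from 0 to 1, their median log2 fold change from 0.51 to 0.90, and the genes called in all from 1 to 936. The median of the 9 was 0.46 with the mice labelled k (2 control mice). For 8 genes, since Isg15 was filtered out, it was 0.78 on 21 libraries and 0.76 with the technical number as a block, which is shared by libraries and not by mice. The lowest adjusted p of a member was 0.0623 with DESeq2, 0.604 with limma-voom on 7 mice, 0.0828 on 21 libraries and 0.106 with the block. The genes called in all numbered 1 with edgeR, RLE factors, limma-voom on 7 mice and no fold threshold. They numbered 601 with DESeq2, 639 with every gene of at least 1 count, 0 with the mice labelled k by edgeR (fewer mice, 949 at an unadjusted p under 0.05), 65 on 21 libraries, 62 with the block, and 48, 39 and 77 with technical libraries 1, 2 or 3 alone; the cause was not tested. The motif with 3 spacer bases was in 2 windows in place of 5, by its construction. Chosen after seeing the data, leaving out technical library 3 of Notch3-/- mouse 3 and comparing that mouse alone with the controls each gave 1 gene called, and medians of 0.56 and 0.73. With 3 mice against 4 and 6 to 38 counts of Isg15 per mouse, the difference of a low gene was not resolved.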

Other observations

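Trim21, Apol9a and Apol9b, of the further interferon-induced list, were chosen after their values were seen. Trim21, an antibody receptor inside cells, was counted 35 and 64 times in control mice 1 and 2 but 3 and 2 times in control mice 3 and 4, and 1, 10 and 0 times in the Notch3-/- mice. Its counts thus followed the first letter of the mouse labels, X for control mice 1 and 2 and k for the others. Apol9a had 0, 0, 3 and 0 counts in the control mice and 20, 91 and 7 in the Notch3-/- mice, and Apol9b had 1, 3, 0 and 1 and 37, 155 and 4. Both were highest in the Notch3-/- mice with high hepatocyte markers, as was Bst2 of the 9 genes.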
